A study of Mus musculus with 48 samples.

Results

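The genes described here encode 9 secreted proteins of the astrocyte that act on synapses from the extracellular matrix. They are Sparc, Sparcl1, Chrdl1, Thbs4, Tnc, Bcan, Ncan, Ptn and Timp3, chosen by name from 47643 Ensembl genes, and each symbol matched 1 identifier. Ribosome-bound RNA of the dorsal hippocampus of 3 mice was compared between 2 compartments, whole astrocytes (Astro) and their thin perisynaptic processes (PAP), which surround synapses. All samples came from the strain Tg(Aldh1l1-eGFP/Rpl10a) JD130Htz, which expresses an eGFP-tagged ribosomal protein, L10a, from the Aldh1l1 promoter. Ribosomes were captured through the tag with a GFP antibody, which restricts the RNA to cells with an active Aldh1l1 promoter as far as the capture is specific. No treatment, age or sex is named in the labels used here. Each of the 3 animals gave both compartments, and their 8 technical replicates were summed to 1 library, giving n = 3 per group.

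Matricellular proteins are secreted proteins that signal from the matrix without building it. Hevin, the product of Sparcl1, promotes the formation of excitatory synapses, and SPARC opposes it. Thrombospondins such as Thbs4 act through the calcium channel subunit encoded by Cacna2d1, and Chrdl1 is a binder of bone morphogenetic proteins (BMPs) that astrocytes release to mature synapses. Tenascin C (Tnc) is a matricellular glycoprotein of development and injury. Brevican (Bcan) and neurocan (Ncan) are lecticans, chondroitin sulfate proteoglycans that bind hyaluronan in the matrix around synapses. Pleiotrophin (Ptn) is a heparin-binding growth factor whose receptor is the phosphatase Ptprz1, and Timp3 is a matrix-bound inhibitor of metalloproteinases.

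The Astro libraries held 18707844 to 20293538 counts and the PAP libraries 1829962 to 2980984, so compartment and depth went together. Levels are given as CPM, the share of a library's counts scaled by TMM factors, and 3 counts correspond to 0.152 to 0.175 CPM in Astro and to 0.987 to 1.54 CPM in PAP. The 10 astrocyte markers summed to 30580, 25030 and 22110 CPM in Astro animals 1 to 3 and to 3504, 8081 and 13620 CPM in PAP. Their sum was thus lower in each PAP library, and most so in animal 1. Some members are also made by oligodendrocyte precursors and vascular cells. Precursor markers summed to 232 to 292 CPM in Astro and to 0, 217 and 208 CPM in PAP, with Neu4 at 0 in each PAP library. The 7 endothelial markers summed to 4.97 to 13.1 CPM in Astro and to 14.8 to 24.4 CPM in PAP, where Cldn5, Cdh5 and Slco1a4 were at 0. The 7 microglial markers summed to 41.1 to 87.4 and to 21.4 to 60.4 CPM, with Cx3cr1, P2ry12 and Tmem119 at 0 in PAP. The 8 mural and fibroblast markers summed to 26.8 to 68.2 CPM in Astro and to 1.52, 3.59 and 153 CPM in PAP, where Pdgfrb, Rgs5, Kcnj8 and Lum were at 0. The 8 neuronal markers summed to 636 to 1132 CPM in Astro and to 427 to 1285 CPM in PAP, and the 7 oligodendrocyte markers to 785 to 848 and to 495 to 1010 CPM. The 6 B lineage markers summed to 38.5 to 61.6 CPM in Astro and to 2692 to 5684 CPM in PAP, nearly all of it from Igkc, Jchain and Mzb1, while Ighm and Cd79a were at 0 in each PAP library. The part of these cells in the values below was not tested.

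The members differed widely in the build of their messenger RNAs. In the transcript chosen for each gene from GENCODE M21, the coding part ran from 507 bases in Ptn to 6060 bases in Tnc, against a median of 1371 over 12542 tested genes. The 3′ untranslated region ran from 161 bases in Thbs4 to 3604 bases in Timp3, against a median of 1064. GC content ran from 41.0% in Chrdl1 and 42.4% in Ptn to 60.7% in Bcan, which was higher than in 96.4% of tested genes. Quaking, encoded by Qk, is an RNA-binding protein of glia that recognises a short core motif in 3′ untranslated regions. Its core was searched as ACTAAC and ACTAAT on the transcript strand alone, and each motif was found in 2 members. The 4 matches are shown with 10 bases on each side, in build GRCm38 and 5′ to 3′ along the transcript, with the motif in capitals.

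Sparc, chr11:55394659-55394684, minus strand: gaaaccttctACTAATcaagagaaac

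Chrdl1, chrX:143298062-143298087, minus strand: ataagggctaACTAATagtagagaaa

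Ncan, chr8:70094899-70094924, minus strand: atgtacacacACTAACacaccttctc

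Timp3, chr10:86345945-86345970, plus strand: cgtcccagacACTAACtcttcccaga

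These 4 genes had longer 3′ untranslated regions than the other 5, at 1085, 2648, 3235 and 3604 bases for Sparc, Chrdl1, Ncan and Timp3. Of tested genes with a 3′ untranslated region within 25% of the same length, 28.1% held a match for Sparc, 55.0% for Chrdl1, 61.4% for Ncan and 65.0% for Timp3. No match was found in Sparcl1, Thbs4, Tnc, Bcan or Ptn, for which the share among regions of like length was 3.93% to 21.3%. The genes with a match comprised the member at 0 in PAP (Chrdl1) and members still present there (Sparc, Ncan and Timp3). Qk itself stood at 821, 1288 and 1359 CPM in Astro and at 284, 913 and 1462 CPM in PAP (edgeR adjusted p = 0.737).

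Together the 9 genes summed to 5385 ± 1950 CPM in Astro and to 2224 ± 1275 CPM in PAP (SD, n = 3). Sparcl1 alone made 47.5% to 50.6% of that sum in the Astro libraries and 39.1% to 53.7% in the PAP libraries. Levels were compared between genes per kilobase of exonic length. In Astro the order was Sparcl1 at 896 ± 316 CPM per kb, Bcan at 240 ± 76.7, Sparc at 196 ± 98.2, Ptn at 185 ± 68.9, Timp3 at 26.7 ± 9.29, Thbs4 at 24.1 ± 3.44, Ncan at 12.3 ± 5.65, Chrdl1 at 1.88 ± 0.897 and Tnc at 0.178 ± 0.193 CPM per kb (SD, n = 3). The ranges of Bcan and Sparc overlapped in Astro, as did those of Sparc and Ptn and of Timp3 and Thbs4, while the other neighbours in this order did not overlap. In PAP the order was Sparcl1 at 359 ± 223 CPM per kb, Sparc at 95.6 ± 50.3, Ptn at 83.4 ± 37.8, Bcan at 76.0 ± 53.3, Timp3 at 17.7 ± 11.8, Thbs4 at 13.1 ± 11.9, Ncan at 3.39 ± 1.38, Tnc at 0.0797 ± 0.0457 and Chrdl1 at 0 (SD, n = 3). Sparc, Ptn and Bcan overlapped in PAP, as did Timp3, Thbs4 and Ncan, so their ranges do not separate these neighbours. Within libraries, Timp3 stood above Thbs4 per kb in 3 of 3 PAP libraries. Compared within libraries, Bcan stood above Sparc per kb in 3 of 3 Astro libraries and below it in 3 of 3 PAP libraries. Exonic length, over all transcripts of a gene, was 3788 bases for Sparc, 4064 for Bcan and 3433 for Ptn. The transcripts chosen above were 2300, 3141 and 1614 bases long. The order of these 3 genes in Astro, and with it the comparison of Bcan and Sparc there, depends on the length used. Among all genes ranked per kb, Sparcl1 held places 29 to 59 in the Astro libraries and 81 to 239 in PAP.

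**Figure D1:**
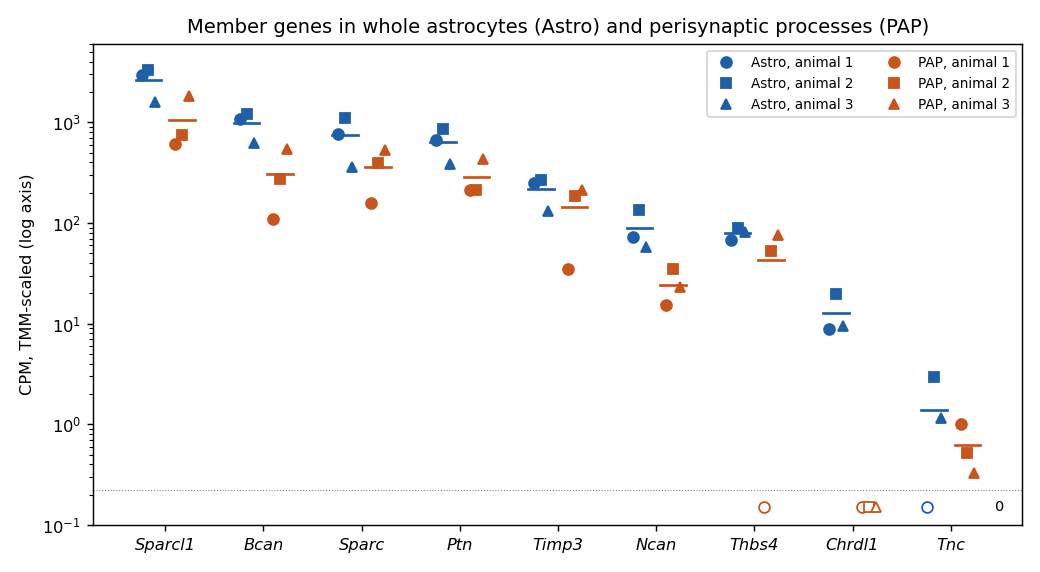
CPM of the 9 members (log axis) in each library, blue for Astro and orange for PAP, with a symbol for each animal and a line at the group mean; open symbols below the dotted line are libraries at 0. Animal 3 is the lowest of the Astro libraries for Sparcl1 (1581 CPM) and the highest of the PAP libraries (1806 CPM), and Chrdl1 is at 0 in each PAP library.

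Sparcl1 stood at 2982, 3335 and 1581 CPM in Astro animals 1 to 3 and at 614, 743 and 1806 CPM in PAP (gene ENSMUSG00000029309, GRCm38 chr5:104079111-104113733, minus strand). The 3 PAP libraries overlapped the Astro range because of animal 3, whose PAP library was above its Astro library. The log2 fold change of PAP over Astro was -1.32 ± 0.50 (SE), with an edgeR adjusted p of 0.126. Sparc (ENSMUSG00000018593, chr11:55394500-55423183, minus strand) stood at 764, 1102 and 359 CPM in Astro and at 157, 394 and 534 CPM in PAP. Its groups also overlapped, animal 3 again being higher in PAP, and its log2 fold change was -1.03 ± 0.58 (SE; edgeR adjusted p = 0.301). Whether the ratio of Sparc to Sparcl1 differed between the compartments was not tested.

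Chrdl1 (ENSMUSG00000031283, chrX:143285674-143394262, minus strand) was the single member past the threshold, and it fell. It had 167, 337 and 187 counts in Astro, or 8.93, 19.7 and 9.45 CPM, and 0 counts in each PAP library. With a floor of 3 counts per library as the PAP level, the drop was at least 9.4-fold (edgeR adjusted p = 0.022). Thinned by a single random draw to the 1829962 counts of the smallest library, the Astro libraries held 25, 37 and 26 Chrdl1 counts. The edgeR adjusted p was then 0.0222. Other draws, which would give other counts, were not made. With the animal as a block the adjusted p was 0.206, and without an Astro library it ran from 0.0864 to 0.0964, so the call depended on these choices. A count of 0 was common at this level: of 4167 tested genes with 5 to 20 CPM in Astro, 13.9% were at 0 in each PAP library, and of the 1406 tested genes at 0 in PAP 99.0% were called.

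Thbs4 (ENSMUSG00000021702, chr13:92751590-92794818, minus strand) stood at 67.2, 89.6 and 81.3 CPM in Astro, the narrowest spread among the members at 50 CPM or more. In PAP it was at 0, 52.3 and 76.6 CPM, with 0 counts in animal 1 and 233 counts in animal 3. Its log2 fold change was -0.88 ± 1.49 (SE; edgeR adjusted p = 0.773), and animal 3 of PAP lay within the Astro range. Tnc (ENSMUSG00000028364, chr4:63959785-64047015, minus strand) was near the limit of detection in both compartments. It had 0, 51 and 23 counts in Astro and 2, 1 and 1 in PAP, a ratio of 2.31 from the summed counts with an exact 95% counting interval of 0.867 to 8.72, so no difference was detectable at this depth.

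The lecticans were the members whose groups stood furthest apart among those detected in each PAP library. Bcan (ENSMUSG00000004892, chr3:87987531-88000230, minus strand) stood at 1089, 1214 and 622 CPM in Astro and at 110, 276 and 540 CPM in PAP. Each PAP library was below each Astro library, although animal 3 came close, and the log2 fold change was -1.66 ± 0.60 (SE; edgeR adjusted p = 0.110). Ncan (ENSMUSG00000002341, chr8:70093085-70120873, minus strand) stood at 72.9, 134 and 57.6 CPM in Astro and at 15.2, 34.9 and 23.0 CPM in PAP. Its groups did not overlap either, each animal was lower in PAP, and the log2 fold change was -1.86 ± 0.64 (SE; edgeR adjusted p = 0.0959). Neither lectican passed the threshold.

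Ptn (ENSMUSG00000029838, chr6:36714929-36810220, minus strand) stood at 664, 858 and 388 CPM in Astro and at 210, 212 and 436 CPM in PAP. Its log2 fold change was -1.15 ± 0.44 (SE; edgeR adjusted p = 0.132), and in animal 3 the PAP library was above the Astro library. Timp3 (ENSMUSG00000020044, chr10:86300372-86349506, plus strand) stood at 251, 270 and 131 CPM in Astro and at 35.0, 185 and 213 CPM in PAP. Animals 2 and 3 of PAP lay inside the Astro range, and the log2 fold change was -0.59 ± 0.69 (SE; edgeR adjusted p = 0.659). Timp3 overlaps Syn3 on the opposite strand, exons included. As the strand setting is not given in the sources used here, reads of the pair cannot be told apart, and Syn3 had 898 to 1753 counts in Astro and 28 to 116 in PAP.

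Of the 9 members, all of them tested, 1 was called lower in PAP and 0 higher by the edgeR quasi-likelihood test (adjusted p under 0.05). The background over 14618 tested genes was 15.4% called lower and 5.92% called higher, so 1 of 9 is near the background. At an unadjusted p under 0.05, 5 members were lower (Chrdl1, Sparcl1, Bcan, Ncan and Ptn) and 0 higher, against 21.5% of tested genes lower. DESeq2 called the same 5 genes lower and 0 higher, with adjusted p of 0.0339 for Sparcl1, 0.016 for Bcan, 0.00612 for Ncan and 0.0316 for Ptn, against a background of 24.2% lower and 11.8% higher. With the animal as a block 0 members were called, while 0.0342% of tested genes were called lower and 0.876% higher, 0.91% in all. Each PAP library was below each Astro library in 3 of 9 members (Chrdl1, Bcan and Ncan), against 35.1% of tested genes, and 0 members lay above without overlap, against 10.9%. Within all 3 animals, 4 of 9 members were lower in PAP (Chrdl1, Thbs4, Bcan and Ncan), against 40% of tested genes. Of the 7 members at 50 CPM or more in Astro, 0 were called lower, against 8.01% of tested genes at that level, 2 lay below without overlap, against 41.4%, and 6 had a count in each PAP library, against 78.5%. The members' median log2 fold change was -1.19, and it was also -1.19 with Chrdl1 at its bound, while the median of all tested genes was -0.53. With the block these medians were -1.46 and -1.63, so the members' place relative to other genes changed with the model.

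**Figure D2:**
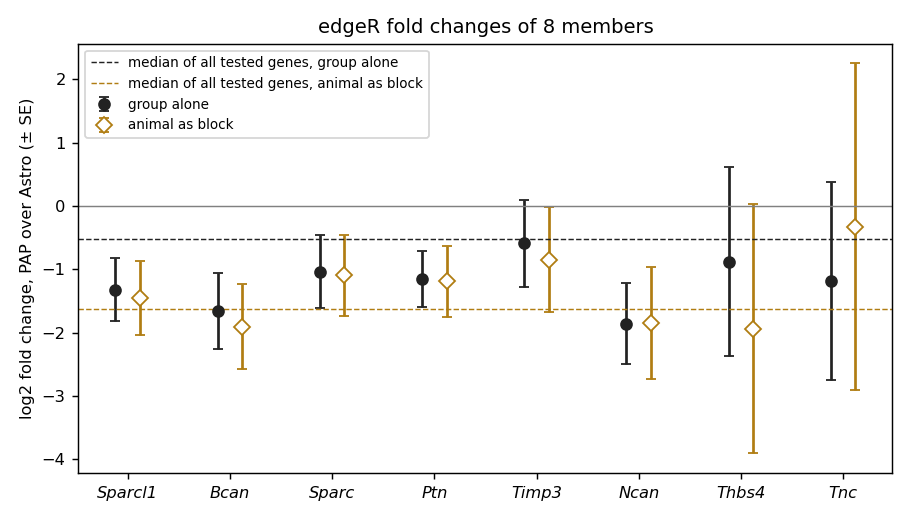
Log2 fold change of PAP over Astro with its SE for 8 members, from the edgeR fit of group alone (filled circles) and with the animal as a block (open diamonds); dashed lines are the medians of all tested genes, and Chrdl1, at 0 in PAP, is left out. Values of group alone run from -1.86 for Ncan to -0.59 for Timp3, and those of Thbs4 and Tnc have the widest errors.

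The size of the difference depended on the animal. On the scale of log2(CPM + 1), Sparcl1 differed by -2.28, -2.17 and 0.19 between PAP and Astro of animals 1 to 3, Bcan by -3.29, -2.13 and -0.21, and Sparc by -2.27, -1.48 and 0.57. Ptn differed by -1.66, -2.01 and 0.17, and Timp3 by -2.80, -0.55 and 0.71. The 4 genes Sparcl1, Sparc, Ptn and Timp3 were thus lower in PAP of animals 1 and 2 and higher in PAP of animal 3, a pattern held by 13.4% of the 4269 tested genes at 50 CPM or more in Astro. The median over the 10 astrocyte markers was -3.09, -1.81 and -0.67 in the same animals, and that over all tested genes was -1.05, -1.26 and -0.96. The median over the 9 members was -2.28, -1.92 and -0.08. Over the 4269 tested genes at 50 CPM or more in Astro the median was -1.13, -0.94 and -0.56. All 4 medians were thus nearest to 0 in animal 3, while Timp3 was nearest to 0 in animal 2. Chrdl1, at 0 in each PAP library, gives no such order. The PAP library of animal 3 held the highest astrocyte marker sum of the 3. In bulk pulldowns, fewer astrocyte processes and less RNA per process cannot be told apart.

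**Figure D3:**
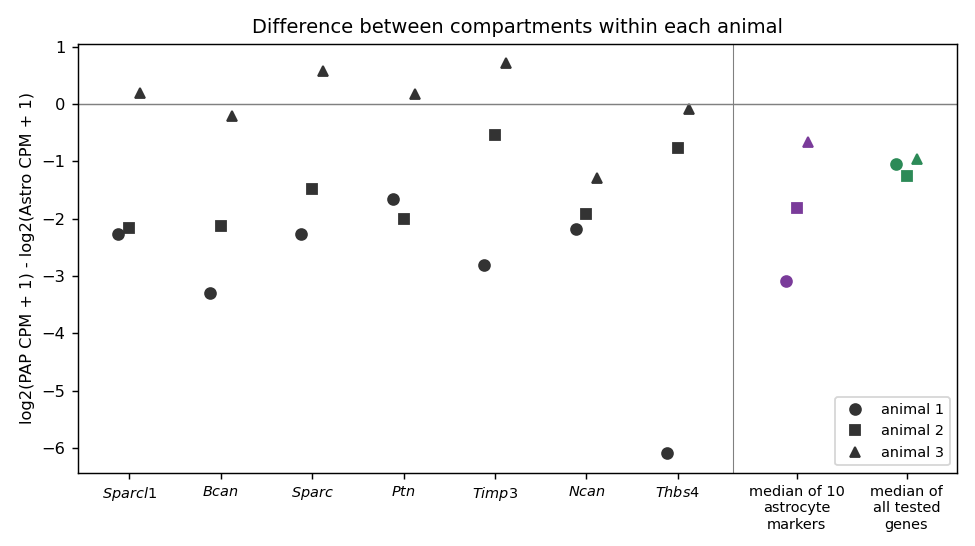
Difference between PAP and Astro within each animal, as log2(CPM + 1), for the 7 members at 50 CPM or more in Astro, and the medians of 10 astrocyte markers (purple) and of all tested genes (green). Triangles for animal 3 lie near or above 0 for 6 members and at -1.29 for Ncan, while animals 1 and 2 lie below 0 for each gene.

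Both compartments contributed to that pattern. In Astro, animal 3 was the lowest library for 6 of the 7 members at 50 CPM or more, the exception being Thbs4, where 37.0% of tested genes at that level had animal 3 lowest. In PAP, animal 3 was the highest library for 6 of these 7, the exception being Ncan, against 41.5% of such genes. The coefficient of variation between Astro animals was 0.142 for Thbs4 and 0.320 to 0.501 for the other 6, against a median of 0.139 over the 4269 genes, of which 11.9% reached 0.3. In PAP it ran from 0.406 for Ncan to 0.911 for Thbs4, around the median of 0.670. The members thus spread more between Astro libraries than most genes of their level. In PAP, 5 of the 7 lay below the median and Bcan and Thbs4 above it.

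Over the 6 libraries the 7 members at 50 CPM or more were correlated with each other on the log2 scale at 0.615 (Thbs4 and Ptn) to 0.989 (Sparcl1 and Ptn), over 21 pairs. The points share libraries, depth and compartment, so these values are descriptions. The 3 genes whose pattern was most like that of Sparcl1 among 4262 others at that level were Mlc1, which encodes a membrane protein of astrocyte endfeet, the glutamate transporter gene Slc1a2 and Dkk3, with r of 0.987, 0.986 and 0.986 over 6 libraries. Mlc1 stood at 1153, 1212 and 600 CPM in Astro and at 277, 256 and 583 CPM in PAP, and Dkk3 at 295, 299 and 157 and at 49.2, 57.96 and 125 CPM. Their adjusted p of 0.0746, 0.0907 and 0.0628 (Mlc1, Slc1a2 and Dkk3) did not pass either.

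The other genes of these families were given by a list of 53, of which 36 passed the filter on low counts. Of these, 7 were called lower in PAP and 0 higher by edgeR, and DESeq2 called 12 lower and 1 higher. Over all tested genes 15.4% were called lower and 5.92% higher by edgeR, and 24.2% lower and 11.8% higher by DESeq2, so the lower counts are not far above the background and the higher counts are below it. Of the 7 called lower, 4 were at 0 in each PAP library, where 99% of tested genes were called. The higher gene was the hyaluronan receptor gene Cd44, which is named here after its values were seen, at 1.67 to 8.39 CPM in Astro and 32.0 to 67.2 CPM in PAP (edgeR adjusted p = 0.0559). The 7 lower genes were Smoc2, Spock3, Fstl1, Bmp6, Bmp7, Adamts1 and Mmp14. With the animal as a block 0 of them were called, at edgeR adjusted p of 0.206 to 0.209, where only 0.0342% of tested genes were called lower. The median log2 fold change of the 36 was -1.34, and -1.31 with the 5 genes at 0 in PAP at their bounds.

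Within the SPARC family, 3 of 6 genes fell in the edgeR test of group alone, against 15.4% of tested genes. With the animal as a block 0 of 6 were called, where only 0.0342% of tested genes were called lower. Fstl1, a secreted follistatin-like glycoprotein, had 53.5, 57.4 and 33.9 CPM in Astro and 1, 0 and 1 counts in PAP, a ratio of 166 from the summed counts (exact 95% counting interval 45.9 to 1370; edgeR adjusted p = 0.0208). Spock3, a testican proteoglycan, had 420 counts in Astro and 2 in PAP, a ratio of 26.3 (interval 7.23 to 218; adjusted p = 0.0216). Smoc2 had 68, 87 and 27 counts in Astro and 0 in each PAP library (adjusted p = 0.0276). In the same random draw to the depth of the smallest library, its Astro counts were 6, 6 and 0, so a difference was hardly detectable in that draw. The family also held genes with higher mean levels in PAP that did not pass: Spock1 stood at 2.73, 10.9 and 10.05 CPM in Astro and at 0, 29.8 and 88.5 CPM in PAP (adjusted p = 0.475), and Spock2 at 16.5, 21.4 and 16.8 CPM and at 0, 11.8 and 111.8 CPM (adjusted p = 0.736). These 2 genes are named after their values were seen. Sparc and Sparcl1 did not pass, and the difference between them and these relatives was not tested. Of the 4 other thrombospondins, Thbs2 and Thbs3 were tested and did not pass.

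Among the chordin and BMP pathway genes, 2 of 7 tested were called lower, Bmp6 and Bmp7, which encode BMPs, the ligands that Chrdl1 binds. Over all tested genes 15.4% were called lower. With the animal as a block 0 of these 7 were, where only 0.0342% of tested genes were called lower. Both Bmp6 and Bmp7 were at 0 in each PAP library, where 99% of tested genes were called. Bmp4 was too low to be tested, at 0.588, 5.02 and 0.556 CPM in Astro and at 0, 0 and 0.658 CPM in PAP. Bmp6 stood at 11.01, 36.9 and 14.04 CPM in Astro and at 0 in PAP, a drop of at least 15.3-fold (edgeR adjusted p = 0.0247), and Bmp7 fell at least 12.6-fold (adjusted p = 0.0246). Without Astro animal 2 these bounds were 9.28-fold and 8.22-fold. The receptor gene Bmpr1a stood at 154 ± 20.9 CPM in Astro and 16.2 ± 14.2 in PAP (SD, n = 3), lower in 3 of 3 animals and without overlap. It did not pass in edgeR (adjusted p = 0.0814) and was called lower by DESeq2 (adjusted p = 0.00284). Bmpr1b stood at 85.5 ± 28.8 and 80.1 ± 83.7 CPM (SD, n = 3; adjusted p = 0.981).

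Lecticans other than Bcan and Ncan were close to absent, Acan and Vcan having at most 16 counts in any library. The link protein gene Hapln1, whose product joins lecticans to hyaluronan, stood at 63.9, 45.4 and 56.6 CPM in Astro and at 0, 191 and 0 CPM in PAP (adjusted p = 0.969), so a single PAP library made its mean. Of the metalloproteinase inhibitors, Timp4 stood at 781, 807 and 734 CPM in Astro and at 37.6, 102 and 429 CPM in PAP without overlap (adjusted p = 0.160, and 0.0263 by DESeq2), and Timp2 at 156, 321 and 109 CPM and at 0, 24.1 and 139 CPM (adjusted p = 0.533). Of 7 matrix proteases tested, 2 were called lower, against 15.4% of tested genes. With the animal as a block 0 were called lower, against 0.0342% of tested genes (edgeR adjusted p of 0.206 for Mmp14 and 0.209 for Adamts1). Mmp14, a membrane metalloproteinase, fell from 25.1 ± 7.52 CPM (SD, n = 3) to 1, 0 and 2 counts (adjusted p = 0.0228). Adamts1, a protease of lecticans, stood at 28.2, 11.3 and 3.64 CPM in Astro and at 0 in PAP, a drop of at least 10.6-fold (adjusted p = 0.0361). Without Astro animal 1 that bound was 5.52-fold, and 99% of tested genes at 0 in each PAP library were called.

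None of the 5 tested receptor genes passed, with 0 at an unadjusted p under 0.05 and 0 by DESeq2. Over all tested genes 21.3% were called in either direction by edgeR, so a count of 0 among 5 is near the background. Ptprz1, the receptor gene for pleiotrophin and a partner of tenascins, stood at 155, 125 and 100 CPM in Astro and at 164, 123 and 85.2 CPM in PAP. Its log2 fold change was -0.03 ± 0.41 (SE; edgeR adjusted p = 0.976), and its groups overlapped throughout. The syndecan gene Sdc3 stood at 93.5, 116 and 83.8 CPM and at 42.1, 0 and 112 CPM (adjusted p = 0.765), and Mdk, the other gene of the pleiotrophin family, at 118, 175 and 89.5 CPM and at 0, 61.0 and 127 CPM (adjusted p = 0.735). Both Sdc3 and Mdk were at 0 in 1 PAP library. Of the 4269 tested genes at 50 CPM or more in Astro, 21.5% were at 0 in at least 1 PAP library, and of the 7 members at that level Thbs4 was.

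**Figure D4:**
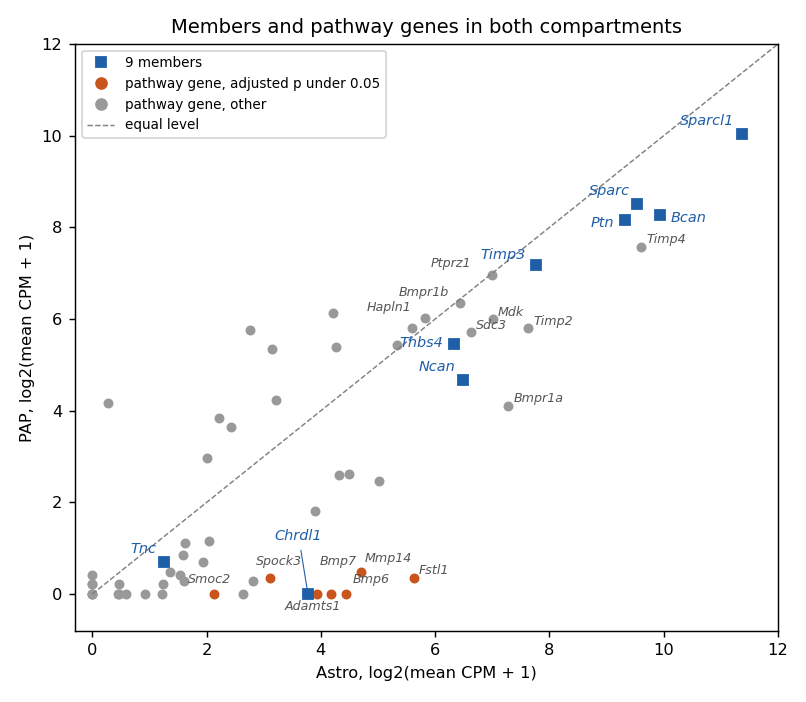
Mean level in PAP against mean level in Astro, as log2(mean CPM + 1), for the 9 members (blue squares) and the pathway genes reported (circles, orange where the edgeR adjusted p is under 0.05); the dashed line marks equal level. The members lie below the line, and the 7 orange genes lie near 0 in PAP.

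The technical replicates give the spread within a library. For Sparcl1 the CPM by library total ran from 1529 to 1705 over the 8 technical replicates of Astro animal 3 and from 1682 to 2026 in PAP animal 3, while the other PAP animals ran from 562 to 953. For Bcan they ran from 79.9 to 144, from 238 to 331 and from 451 to 637 CPM in PAP animals 1 to 3. The PAP animals thus did not overlap for Bcan, while for Sparcl1 animals 1 and 2 overlapped and animal 3 lay above both. Technical replicates of 1 animal share its pulldown and RNA, so they do not show whether the animals themselves differed or their pulldowns did.

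**Figure D5:**
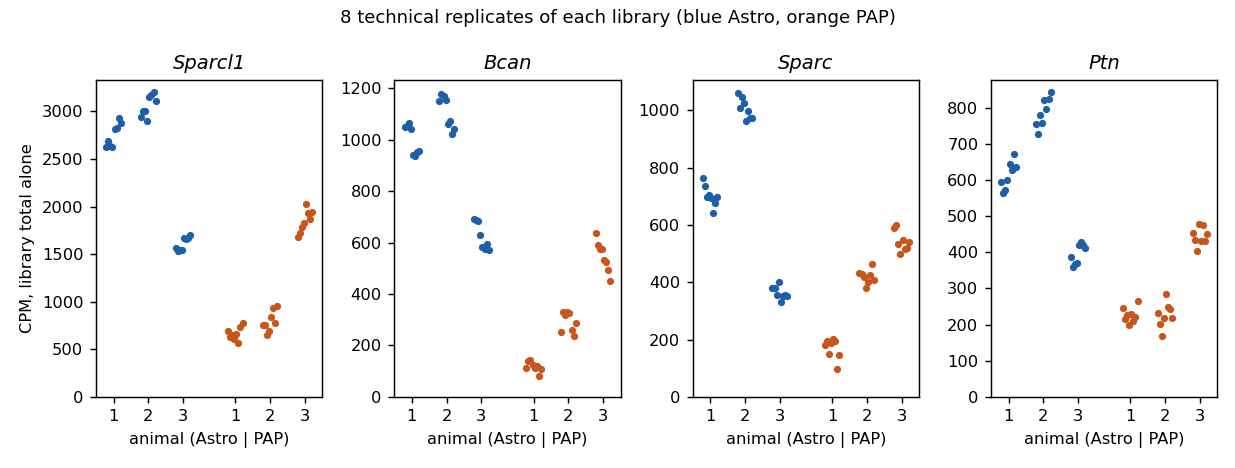
CPM by library total of Sparcl1, Bcan, Sparc and Ptn in each of the 48 technical replicates, 8 per animal, blue for Astro and orange for PAP. Replicates of 1 library lie close together, and for Bcan the PAP animals do not overlap.

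Technical replicates 1 to 4 and 5 to 8 gave slightly different levels of the members, in directions that differed by gene. Between the sums of both sets, on log2(CPM + 1) by library total, Sparcl1, Ptn and Timp3 were higher in replicates 5 to 8 in 6 of 6 libraries, by 0.14, 0.13 and 0.11 on average. Bcan was lower in 6 of 6, with a mean difference of -0.20, and Sparc was lower in 5 of 6. Over 4269 tested genes at 50 CPM or more in Astro, 11.6% were higher and 10.4% lower in replicates 5 to 8 in all 6 libraries. Their GC content was 48.2% for Sparcl1, 42.4% for Ptn, 46.8% for Timp3, 52.5% for Sparc and 60.7% for Bcan. Across 4147 genes with a transcript, the difference correlated with GC content at a Spearman rho of -0.784, -0.751 and -0.796 in Astro animals 1 to 3 and of -0.279, -0.310 and -0.404 in PAP. These are descriptions across genes, which are not independent replicates, and the part of GC content in the shift was not tested. Both compartments of each animal hold both sets.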

How the data were processed

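Raw counts per Ensembl gene were deposited by the authors for each technical replicate, with no scaling. The submitters' processing notes name bcl2fastq 2.18.0.12, Trim Galore 0.4.1, STAR 2.5.2b, SAMtools, HTSeq 0.5.3 and build mm10, and the annotation release and strand setting are not given in the sources used here. Per the labels' protocols, cDNA was amplified with a SMART-Seq kit before Nextera XT libraries were made, and molecular identifiers are not mentioned, so intervals and floors cover counting error only.

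Counts of the 8 technical replicates were added up per animal and compartment. Symbols, positions and exonic lengths came from GENCODE M21, which held 99.12% of the 47643 identifiers. The test was that of edgeR 4.0.16, run in R 4.3.3 (filterByExpr with a minimum count of 10, TMM, quasi-likelihood test of group alone, Benjamini-Hochberg adjustment over all 14618 tested genes, threshold 0.05); the SE is the log2 fold change over the root of its F statistic. Alternatives used DESeq2 1.42.0 and limma 3.58.1. Same-numbered libraries come from the same animal, which is where the pairing comes from; the deviations of each animal's libraries correlated at 0.034, 0.019 and -0.033 over genes. Apart from the members, pathway genes were named if called or at 50 CPM or more in Astro. A gene that this rule names is not reported here. The genes like Sparcl1 were the 3 of highest r on log2(CPM + 1). The members and lists were chosen with earlier results of these data known. P-values of the fit of group alone measure the spread between the 3 libraries of each group and ignore the pairing. Animal and pulldown are mixed in that spread. With the animal as a block, p-values measure the spread of the differences within animals.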

Additional observations from a re-analysis of the deposited data

How the results depend on the processing

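The members' calls changed with the model of the animals. With the replicate block, 0 members and 0 pathway genes were called lower, and over all genes 128 were higher and 5 lower. The DESeq2 Wald test called 5 members lower, 12 pathway genes lower and 1 higher, and 1685 genes higher and 3456 lower over all. Leaving out 1 library gave 0 to 4 members lower (0 without any Astro library, 4 without PAP animal 3, which were Chrdl1, Sparcl1, Bcan and Ptn), 0 to 10 pathway genes lower and 0 to 1 higher, and 114 to 1251 genes higher and 1 to 3335 lower over all. Over all genes, 571 were higher with no filter on low counts, 826 were lower at a mean of at least 100 counts, and 962 were lower with libraries thinned to the smallest. Thinning left 4 pathway genes lower of 24 tested, and library size alone gave 1 pathway gene higher. The fold change of Tnc reversed in voom, to 0.79; the cause was not tested. The other 8 members were negative in each of 17 alternatives. The median over all genes tested was -0.53; it was -0.38 with library size alone, -0.22 thinned, -1.04 with no filter, -1.62 in voom and -1.63 with the block, over the genes each tested. The bounds without an Astro library were added after the data were seen. Depth limits what can be said of Chrdl1 (0 counts in PAP) and Tnc (1 to 2).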
